A study of Mus musculus with 9 samples.

Results

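The genes described here were the 10 that encode the FOS proteins (Fos, Fosb, Fosl1, Fosl2), the JUN proteins (Jun, Junb, Jund), Batf and Batf3, and Atf3. They were picked by symbol from 41388 genes in the deposited table of normalized counts, and all 10 were among the 11599 genes that passed a minimum mean of 10 normalized counts and were tested. The cells were naive CD62L+CD44-CD8+ T cells sorted from lymph nodes and spleens of adult, sex- and age-matched C57BL/6 mice and primed for 2 days towards the IL-17-producing CD8 T cell type, Tc17. All cultures held plate-bound anti-CD3 at 5 µg/ml, anti-CD28 at 0.5 µg/ml, IL-2 at 50 U/ml, TGF-β at 0.5 ng/ml, IL-6 at 30 ng/ml and anti-IFN-γ at 5 µg/ml. The groups were 0.2% DMSO alone (Ctrl), dimethyl fumarate added to it at 20 µM (DMF), and DMF at 20 µM together with glutathione at 50 µM (DMF + GSH), with 3 libraries each. Dimethyl fumarate is an electrophile that reacts with thiols, and glutathione is the main small thiol of cells, so the last group asks which DMF differences are present when the thiol is supplied. No culture had GSH without DMF.

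AP-1 is a family of basic leucine zipper (bZIP) transcription factors that bind DNA as dimers. FOS proteins cannot pair with themselves and need a JUN partner, whereas JUN proteins pair with FOS proteins, with BATF proteins or with each other. BATF and BATF3 consist of little more than the zipper and lack the transactivation domain of FOS. They pair with JUN proteins and bind next to IRF4 or IRF8 at composite elements, and BATF is required for type 17 differentiation of T cells. ATF3 is a bZIP factor of the ATF branch that many stresses induce. BATF3 is best known for the development of cross-presenting dendritic cells and is also expressed by activated T cells.

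Libraries held between 7671772 and 14511926 reads. Replicate 1 of each group was labelled batch 1 and replicates 2 and 3 batch 2. Nothing in the labels said that replicates came from separate animals, so p values measure only the spread between these samples. The T cell genes Cd3e, Cd3d, Cd3g, Cd8a, Cd8b1, Cd2 and Lck were present in every library, with summed normalized counts of 31697 to 38733. Cd4 had a mean of 1.87 normalized counts over the 9 libraries, and Hba-a1, Hbb-bs and Hbb-bt were at 0 in all of them. A list of 3 CD4 T cell markers summed to 51.2 to 79.0 normalized counts in Ctrl. The sum was 63.9 to 89.9 with DMF and 42.9 to 83.9 with DMF + GSH.

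Batf3 and Atf3 lie near each other on chromosome 1. In the build GRCm38, Batf3 spans chr1:191097847-191108945 on the plus strand and Atf3 spans chr1:191170296-191218039 on the minus strand, and the gap between them is 61.4 kb. Fam71a, a protein-coding gene with a mean of 0.337 normalized counts that was not tested, lies between them. The sequences before the RefSeq starts of Batf3, Atf3, Fos and Jun (GRCm38.p6, from RefSeq) are printed because the levels of the first 3 differed most between groups and Jun, a common partner, did not pass the threshold in any comparison. Capitals mark matches to the motifs described after the sequences. For Batf3 only the longest stretch outside annotated exons is given, chr1:191098238-191098324 on the plus strand. For the other genes the whole 250 bases before the start are given. They are chr1:191183334-191183583 on the minus strand for Atf3, chr12:85473640-85473889 on the plus strand for Fos and chr4:95052223-95052472 on the minus strand for Jun.
Batf3: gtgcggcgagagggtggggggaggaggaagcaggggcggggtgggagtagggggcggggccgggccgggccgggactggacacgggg
Atf3: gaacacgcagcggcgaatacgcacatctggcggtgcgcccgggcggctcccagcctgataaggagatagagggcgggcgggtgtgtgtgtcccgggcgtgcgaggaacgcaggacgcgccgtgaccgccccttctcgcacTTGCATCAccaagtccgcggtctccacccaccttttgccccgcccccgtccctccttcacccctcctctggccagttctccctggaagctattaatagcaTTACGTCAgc
Fos: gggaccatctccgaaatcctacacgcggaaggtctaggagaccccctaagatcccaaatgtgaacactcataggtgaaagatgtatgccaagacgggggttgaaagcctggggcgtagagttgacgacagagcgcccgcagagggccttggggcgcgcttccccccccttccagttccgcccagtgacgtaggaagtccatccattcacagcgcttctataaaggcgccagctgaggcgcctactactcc
Jun: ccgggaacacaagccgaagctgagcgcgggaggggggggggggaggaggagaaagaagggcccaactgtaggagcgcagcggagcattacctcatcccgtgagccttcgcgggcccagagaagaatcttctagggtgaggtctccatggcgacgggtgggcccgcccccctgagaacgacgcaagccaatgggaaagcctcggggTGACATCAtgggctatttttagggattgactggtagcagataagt

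Matches were searched on both strands of the 250 bases for TGANTCA (the FOS-JUN site), TGACGTCA (the CRE), its variants TGACGTAA and TGACATCA, TGATGNAA (a C/EBP-ATF site), TGACNNNGC (the core of the antioxidant response element) and the CArG box of serum response factor. These motifs were chosen after the sequences had been seen, and a match is a description of letters. Of the 9 genes with a RefSeq window (none was held for Fosl1), 2 had a match. Atf3 held TTACGTCA, the reverse complement of TGACGTAA, from 10 to 3 bases before its start, and TTGCATCA, a reverse match to TGATGNAA, from 110 to 103 bases before it. These 2 matches do not overlap. Jun held TGACATCA from 45 to 38 bases before its start. Among all 32841 windows of this length, TGACGTAA was present in 0.448%, TGATGNAA in 3.45%, TGACATCA in 2.93%, TGACGTCA in 1.55%, TGANTCA in 6.75%, TGACNNNGC in 10.2% and the CArG box in 1.47%. The window of Batf3 was 76% G or C and that of Atf3 65.2%, against a median of 52.4% over all windows, and Batf3 held none of these motifs. In the GENCODE annotation 163 of the 250 bases of the Batf3 window and 7 of those of Atf3 fall in exons of transcripts that start further upstream.

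Batf3 rose with DMF. Its normalized counts in Ctrl replicates 1 to 3 were 6.24, 14.9 and 14.2. With DMF they were 148, 93.3 and 145. With DMF + GSH they were 12.1, 11.1 and 33.1. The DMF libraries lay well above all 6 others, and the Ctrl and DMF + GSH libraries overlapped. The Ctrl values are small, the lowest resting on 6 reads. On the log2(normalized count + 1) scale used for every log2FC here, the log2FC of DMF against Ctrl was 3.40 ± 0.42 (SE, p adj = 0.00278, limma), which placed Batf3 at rank 3 among the 11599 genes ordered from the highest log2FC. The choice of this gene family was made with the rise of Batf3 known, so the place of Batf3 in this comparison is a description. The difference was 4.37 in batch 1, which holds 1 library per group, and 2.92 in batch 2. When both reagents were present, the log2FC against DMF was -2.86 ± 0.42 (p adj = 0.00809), and 3 of 3 replicates were lower. These comparisons share the DMF libraries. Without Ctrl replicate 1 the p adj of DMF against Ctrl was 0.0354, without DMF replicate 1 it was 0.0319, without DMF replicate 3 0.0198 and without Ctrl replicate 2 0.0121. For DMF + GSH against DMF, Batf3 passed in 3 of 9 fits without 1 library. It missed the threshold without replicate 1 of DMF (p adj = 0.0832), of DMF + GSH (0.0818) or of Ctrl (0.02), without replicate 2 of DMF + GSH (0.0348) or of Ctrl (0.0104), and without replicate 3 of DMF (0.0461).

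Atf3 rose with DMF as well, by less. Its normalized counts were 22.9, 13.9 and 19.9 in Ctrl, 132, 42.8 and 60.0 under DMF alone, and 19.8, 14.1 and 28.2 with DMF + GSH. Every DMF library was above every other library, and the value of replicate 1 was the highest of them by far. The log2FC of DMF against Ctrl was 1.86 ± 0.36 (SE, p adj = 0.00794), with a difference of 2.48 in batch 1 and 1.55 in batch 2. Of the 10 genes, Batf3 and Atf3 were the 2 past the threshold as higher with DMF (p adj under 0.01 and a log2FC of at least 0.75 in either direction), where 1.22% of all tested genes passed as higher. None passed as lower, against 1.67% of all genes. The log2FC of Atf3 between DMF + GSH and DMF was -1.76, with a p adj of 0.0134 that missed the threshold. In a fit that took the replicate number as a block and no batch term (the replicate block), it was 5.81e-05. The p adj of Atf3 for DMF against Ctrl was 0.0117 without a batch term and 0.0123 in the 6 libraries compared, and both missed the threshold. It lay between 0.00379 and 0.0657 when 1 library was left out, past the threshold in 4 of 9 such fits. It missed the threshold without replicate 1 of DMF (0.0657), of Ctrl (0.0531) or of DMF + GSH (0.0151), without replicate 3 of DMF (0.0415) and without replicate 2 of Ctrl (0.0348).

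**Figure D1:**
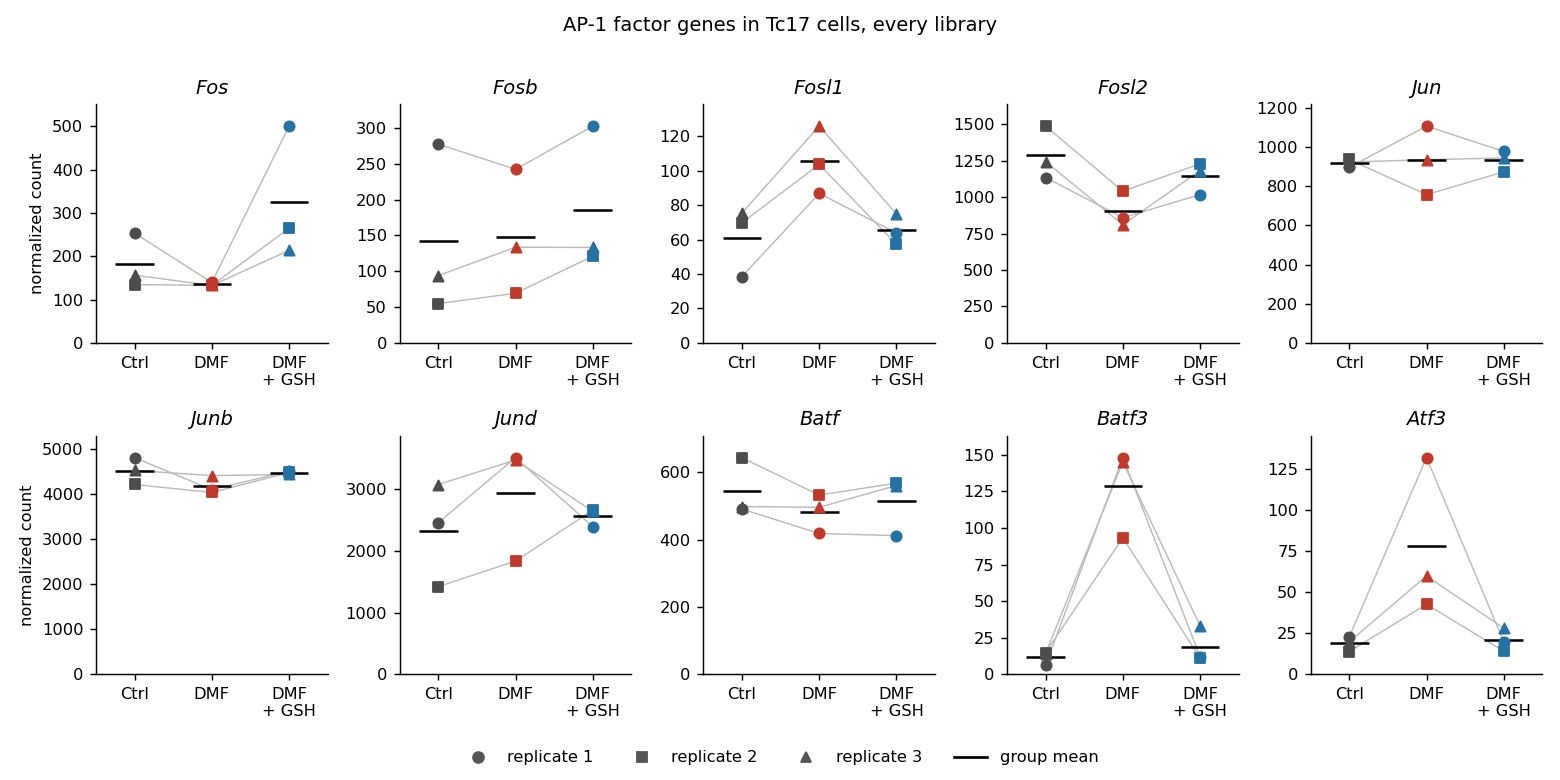
Normalized counts (linear axes from 0) of the 10 genes in every library of Ctrl (grey), DMF (red) and DMF + GSH (blue). Symbols give the replicate, thin lines join libraries with the same replicate number, and bars are group means. The 3 DMF libraries of Batf3 lie between 93.3 and 148 and those of Atf3 between 42.8 and 132, above all other libraries.

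Within 200 kb of either gene 9 other genes were tested, and none passed the threshold for DMF against Ctrl, where 1.22% of all genes passed as higher and 1.67% as lower. The 0 of 9 is near these shares. The genes were Nsl1, Tatdn3, Flvcr1, Vash2, Angel2, Rps6kc1, Nenf, Tmem206 and Ppp2r5a, and their log2FC of DMF against Ctrl ranged from -0.34 to 0.44. Nsl1, a kinetochore subunit whose gene is 11.4 kb from Batf3, had 570 normalized counts in Ctrl and 522 with DMF (log2FC -0.13, p adj = 0.334). Tmem206, which encodes an acid-activated chloride channel, had the highest log2FC of them at 0.44 (p adj = 0.0247).

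**Figure D2:**
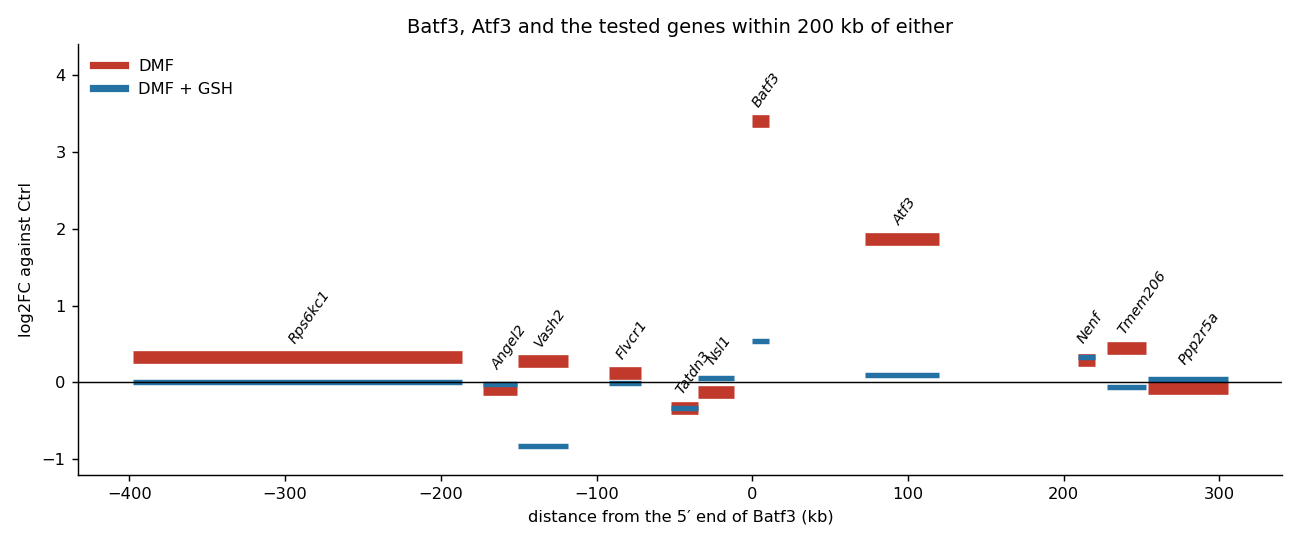
log2FC against Ctrl of DMF (red) and DMF + GSH (blue) for Batf3, Atf3 and the 9 tested genes within 200 kb of either, drawn from start to end by distance in kb from the 5′ end of Batf3. With DMF, Batf3 is at 3.40 and Atf3 at 1.86, while the other genes lie between -0.34 and 0.44.

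None of the 4 FOS genes passed the threshold for DMF against Ctrl in the fit with the batch term. Fosl1 encodes FRA1, a FOS protein without the FOS transactivation domain. Its normalized counts were 38.5, 69.7 and 75.4 in Ctrl, 86.8, 104 and 126 under DMF alone, and 63.8, 57.2 and 74.9 with DMF + GSH. All DMF libraries were above all others, whereas Ctrl and DMF + GSH overlapped. The log2FC of DMF against Ctrl was 0.82 ± 0.21 (SE) with a p adj of 0.0183, which missed the threshold. With the replicate block the p adj was 0.00124, and so Fosl1 joined Batf3 and Atf3 as 3 of 10 genes past it as higher. In that fit 2.53% of all genes passed as higher and 4.28% as lower. Without Ctrl replicate 1 Fosl1 missed the threshold with the block too (log2FC 0.59, p adj = 0.019), and it passed in the other 8 such fits. Fosl1 overlaps Ccdc85b on the other strand over 1163 bases of exon, and the sources used here do not say whether counting used strand. Ccdc85b had a log2FC of 0.39 (p adj = 0.545). Between DMF + GSH and DMF the log2FC of Fosl1 was -0.67 (p adj = 0.0422), which did not pass.

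Fosl2, which encodes FRA2, had 1134, 1486 and 1243 normalized counts in Ctrl, 859, 1040 and 810 under DMF alone, and 1017, 1228 and 1181 with DMF + GSH. All DMF libraries were below all Ctrl libraries, but the DMF and DMF + GSH libraries overlapped. By replicate number, DMF + GSH was above DMF in 3 of 3. Against Ctrl, the log2FC with DMF was -0.51 ± 0.10 (SE, p adj = 0.0095), under the fold threshold of 0.75, and between DMF + GSH and DMF it was 0.34 (p adj = 0.0421). With the replicate block the p adj was 6.54e-06 and 0.000484, and both log2FC stayed under the fold threshold. Fosl1, Batf3 and Atf3 were thus the 3 of the 10 genes whose groups did not overlap with DMF higher, against 21.6% of all genes, and Fosl2 the 1 of 10 with DMF lower, against 19.8%. The share of non-overlapping genes is high in the whole table, and the 3 and 1 of 10 are near it.

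Fos itself, the immediate early gene of the family, was highest with DMF + GSH. Its normalized counts were 254, 135 and 156 in Ctrl, 140, 133 and 133 under DMF alone, and 501, 265 and 214 with DMF + GSH. The DMF libraries lay within 10 counts of each other, and each DMF + GSH library was above the DMF and Ctrl libraries of its own replicate number, though replicate 1 of Ctrl overlapped with the DMF + GSH group. The log2FC of DMF + GSH against DMF was 1.17 ± 0.19 (SE), with a p adj of 0.0107 from limma, 0.00982 from edgeR and 2e-06 from DESeq2. With the replicate block it was 1.24e-05. The difference was 1.83 in batch 1 and 0.84 in batch 2. Against Ctrl the log2FC of DMF + GSH was 0.80 ± 0.19, with 3 of 3 replicates higher. Its unadjusted p was 0.00202 and its p adj 1.0, or 0.0937 with the replicate block. With the block and without DMF replicate 1 the p adj was 0.00535, past the threshold, and in none of the other 8 such fits did Fos pass. Fos had a log2FC of -0.37 for DMF against Ctrl (p adj = 0.173), with a difference of -0.86 in batch 1 and -0.13 in batch 2. Without DMF replicate 1 it was -0.084 (p adj = 0.747).

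In the fit with the batch term, 1 of the 10 genes (Batf3) was past the threshold as lower in DMF + GSH than in DMF, against 0.276% of all genes, and none as higher, against 0.267%. With the replicate block 2 of 10 passed as lower (Batf3 and Atf3), against 2.41% of all genes, and 1 of 10 as higher (Fos), against 3.28%. The groups did not overlap for Fos and Junb as higher with DMF + GSH (17.8% of all genes) and for Fosl1, Batf3 and Atf3 as lower (20.5%).

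Fosb, also an immediate early gene, was higher in replicate 1 than in the other replicates of each group. Its normalized counts in replicate 1 were 277 in Ctrl, 242 with DMF and 303 with DMF + GSH, while the 6 libraries of replicates 2 and 3 ranged from 54.8 to 134. The log2FC of DMF against Ctrl was 0.21, with a 95% interval from -0.39 to 0.82 (p adj = 0.578). That interval takes account of the batch but not of the replicate numbers. With the replicate block the SE was 0.17 instead of 0.27 and the p adj 0.31, which did not pass. Replicate 1 is the library of batch 1 in each group, and batch and replicate cannot be told apart there.

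None of the JUN genes passed the threshold in any of the 3 comparisons. Junb, which encodes a JUN protein required for type 17 T cells, had 4522 ± 299 normalized counts in Ctrl, 4187 ± 201 with DMF and 4482 ± 38.1 with DMF + GSH (mean ± SD, n = 3). Its log2FC of DMF against Ctrl was -0.11, with a 95% interval from -0.26 to 0.04 (p adj = 0.248). Jun, whose protein is c-JUN, had 920 ± 20.6, 934 ± 175 and 932 ± 53.3 normalized counts, and its log2FC of 0.01 had an interval from -0.24 to 0.25. Jund had 2315 ± 834, 2937 ± 955 and 2561 ± 150, with a log2FC of 0.35 and an interval from -0.29 to 0.99 (p adj = 0.378). That interval ignores the replicate numbers, and Jund was higher with DMF in 3 of 3 replicates. With the replicate block its SE was 0.14 instead of 0.29 and its p adj 0.0512, which did not pass. Jund was lowest in replicate 2 both in Ctrl, at 1420, and with DMF, at 1834. Junb shares 173 bases of exon with Prdx2 on the other strand, Jun 232 bases with the antisense transcript Junos and Jund 877 bases with the antisense transcript Gm11175. Prdx2 had a log2FC of -0.09, Junos had a mean of 10.9 normalized counts in Ctrl, and Gm11175 was listed at 0 in all libraries.

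Batf, the BATF protein gene that type 17 cells depend on, had 491, 643 and 498 normalized counts in Ctrl, 418, 532 and 496 under DMF alone, and 411, 567 and 560 with DMF + GSH. The 3 groups overlapped, and the log2FC of DMF against Ctrl was -0.17, with a 95% interval from -0.40 to 0.06 (p adj = 0.245).

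**Figure D3:**
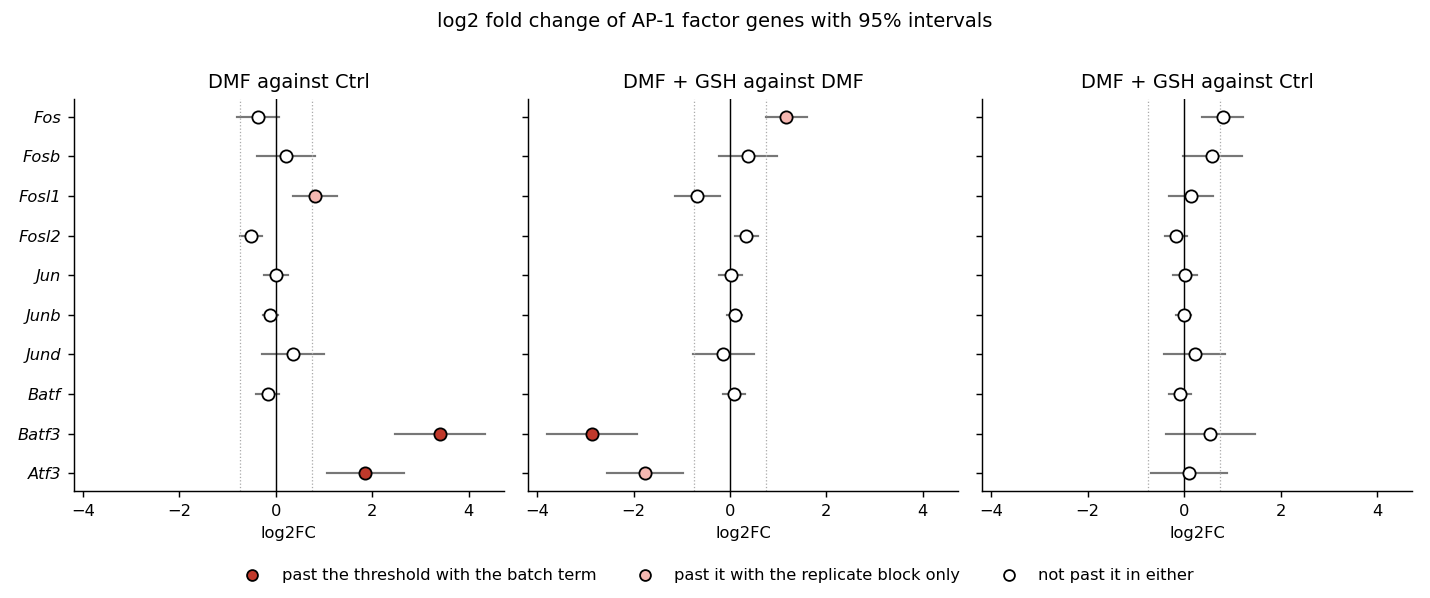
log2FC of the 10 genes (points) with 95% intervals (lines) in the 3 comparisons, with dotted lines at a log2FC of -0.75 and 0.75. Red points passed the threshold with the batch term (Batf3 and Atf3 for DMF against Ctrl, Batf3 for DMF + GSH against DMF), pink points with the replicate block only (Fosl1, Fos and Atf3). Any 2 of the comparisons share libraries.

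Between DMF + GSH and Ctrl none of the 10 genes passed the threshold in the fit with the batch term, and 0% of all genes did. limma called 0 of 11599 genes and had 222 at an unadjusted p under 0.05. edgeR called 0 with 213, and DESeq2 called 0 with 100. These fits ignored the replicate numbers. With the replicate block limma called 1 of 11599 genes, as lower, and had 599 at an unadjusted p under 0.05. None of the 10 genes passed there either. The groups overlapped for all 10 genes, where 2.08% of all genes did not overlap as higher and 2.39% as lower. A p that misses the threshold does not show that levels were equal. The 95% interval of the log2FC was 0.37 to 1.23 for Fos, which lies above 0, -0.39 to 1.47 for Batf3, -0.69 to 0.89 for Atf3, -0.02 to 1.19 for Fosb and -0.16 to 0.14 for Junb. These intervals ignore the replicate numbers. Fosb, with a log2FC of 0.58, was higher with DMF + GSH than in Ctrl in 3 of 3 replicates. With the replicate block its SE was 0.17 instead of 0.27, and its p adj of 0.415 did not pass.

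The levels of the 10 genes were compared per kb of merged exon. In Ctrl, Junb had the highest level at 1965 ± 130 normalized counts per kb (SD, n = 3) and Jund followed at 1388 ± 500, with overlapping ranges. Batf at 387 ± 61.1, Jun at 288 ± 6.47, Fosl2 at 133 ± 18.6 and Fos at 77.2 ± 26.9 came next, each apart from the next gene in every library. Below them Fosl1 at 30.1 ± 9.77, Fosb at 22.8 ± 19.0, Atf3 at 8.78 ± 2.11 and Batf3 at 7.37 ± 3.01 overlapped with their neighbours. Junb and Jund thus made up 45.9% and 31.6% of the summed level per kb in Ctrl, and Batf3 0.18%.

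With DMF, Batf3 was in the sixth place instead of the tenth, at 80.7 ± 19.3 normalized counts per kb. Its range overlapped there with that of Fosl2 (93.3 ± 12.5) and of Fos (57.4 ± 1.72). Relative to the level per kb of Batf, that of Batf3 was 1.12%, 2.04% and 2.52% in Ctrl, 31.2%, 15.5% and 25.8% under DMF alone, and 2.59%, 1.73% and 5.20% with DMF + GSH. Batf transcripts were thus more abundant per length than Batf3 transcripts in each library. Batf3 made up 1.75% of the summed level per kb of the 10 genes with DMF. With DMF + GSH Fos was in the fifth place at 139 ± 65.0 per kb, and overlapped with Fosl2 at 118 ± 11.5.

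**Figure D4:**
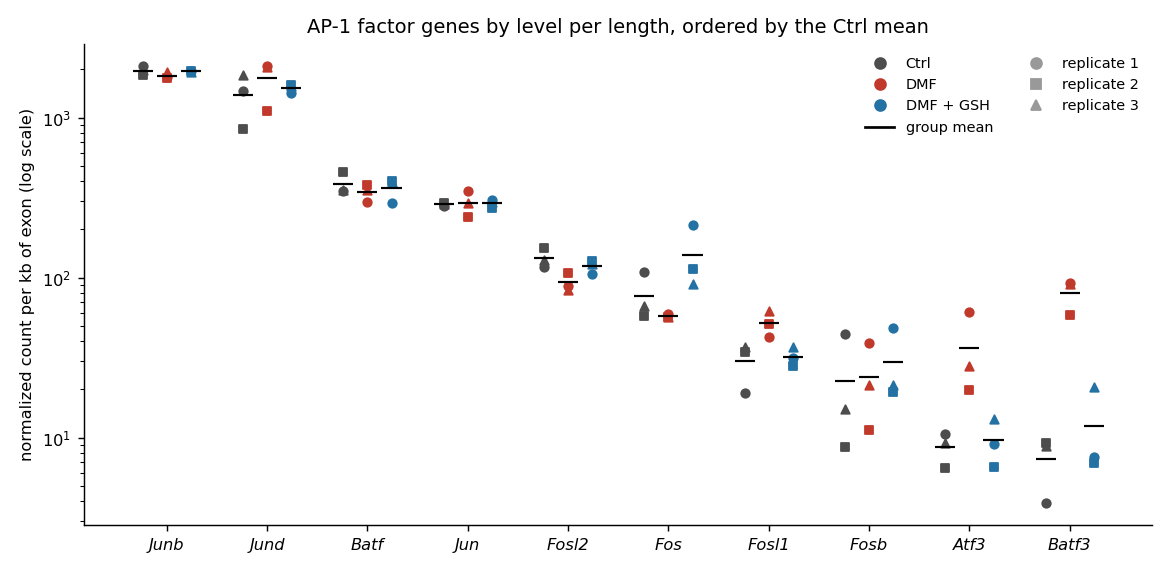
Normalized counts per kb of merged exon (log axis) of the 10 genes in every library, ordered by the Ctrl mean. Colours give the group, symbols the replicate and bars the group mean. Junb (1965 in Ctrl) and Jund are highest throughout, and Batf3 goes from 7.37 in Ctrl to 80.7 with DMF, near Fosl2 and Fos.

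The genes most like Batf3 and Atf3 were sought by Pearson's r over the 9 libraries after the batch means had been subtracted. For Batf3 they were Dnaja3 (0.994), Thg1l (0.990), Slc5a6 (0.989), Ywhag (0.989) and Qdpr (0.987). Among those of Atf3 were Mrpl19 (0.996), Zmynd19 (0.994), Cinp (0.994) and Pip5k1c (0.992). The log2FC of DMF against Ctrl of these 9 genes was between 0.36 and 0.96, smaller than that of either gene. Batf3 and Atf3 had an r of 0.97 with each other, Batf3 had 0.92 with Fosl1 and -0.85 with Fosl2. All points share the 9 libraries and the groups, and the points of Batf3 and Atf3 fall by group, with DMF apart from the other 6 libraries.

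Irf8 rose among the genes for DNA-binding partners. The list held 9 tested genes (Irf4, Irf8, 3 NFAT genes, Runx1, Runx3, Ets1 and Stat3), of which 1 passed the threshold as higher with DMF and none as lower, against 1.22% and 1.67% of all tested genes. Irf8, which encodes an IRF protein that binds with BATF and BATF3, had 2357, 2789.6 and 3696 normalized counts in Ctrl, 7848, 6054 and 9518 under DMF alone, and 2371, 2555 and 3818 with DMF + GSH. No DMF library overlapped with another group. Its log2FC was 1.41 ± 0.20 (SE, p adj = 0.00457) for DMF against Ctrl and -1.43 (p adj = 0.00774) for DMF + GSH against DMF. Irf4, the partner used in type 17 cells, had 6251 ± 665 normalized counts in Ctrl and 7087 ± 603 with DMF (log2FC 0.18, p adj = 0.158). The median log2FC of the list was -0.13, against 0.01 over all tested genes.

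None of the 23 tested genes of other AP-1 and bZIP factors (of 27 listed) passed the threshold in either direction (1.22% of all genes higher and 1.67% lower), and their median log2FC was 0.15 against 0.01 over all genes. With the replicate block 1 passed as lower, Jdp2, which encodes a bZIP repressor of AP-1. The gene lies 46.8 kb from Batf on chromosome 12, between Fos and Batf. It had 53.2 ± 16.1 normalized counts in Ctrl, 30.4 ± 10.4 with DMF and 51.2 ± 5.30 with DMF + GSH (SD, n = 3), and its log2FC of -0.80 had a p adj of 0.0204, or 0.00421 with the block. Maf, a bZIP factor of type 17 cells, had a log2FC of -0.70 (p adj = 0.00423) and Nfe2l1 0.38 (p adj = 0.0077), both under the fold threshold. Nfe2l2, the gene of the oxidative stress regulator NRF2, had 595 ± 65.5 normalized counts in Ctrl and 563 ± 54.8 with DMF (log2FC -0.08, p adj = 0.532). Jdp2, Maf, Nfe2l1 and Nfe2l2 were named after their values had been seen.

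**Figure D5:**
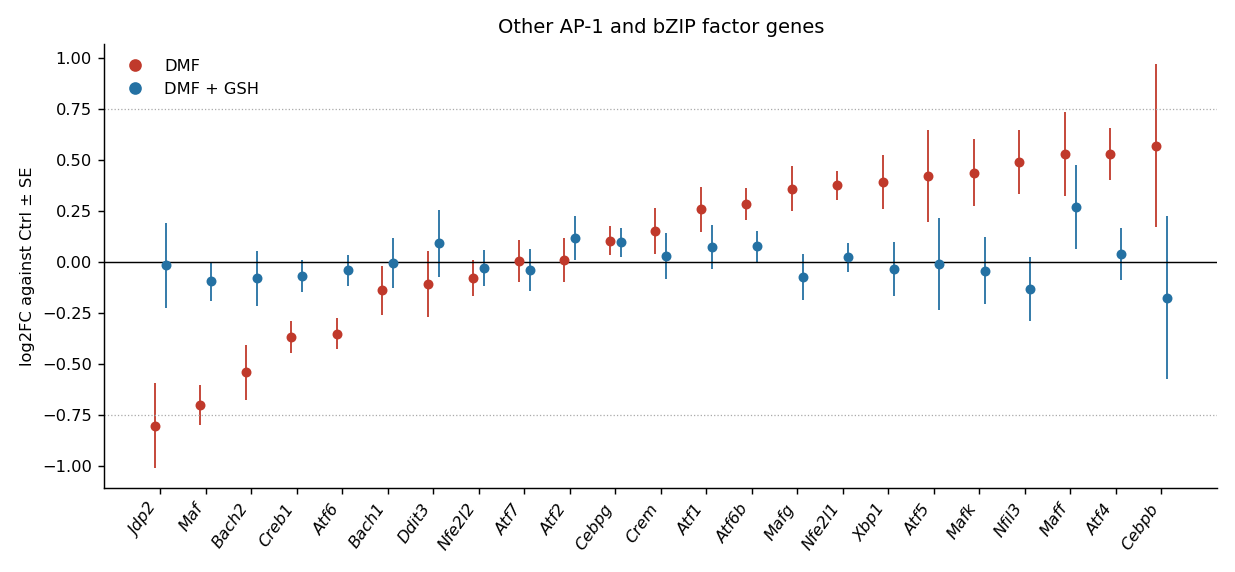
log2FC against Ctrl (points, ± SE) of DMF (red) and DMF + GSH (blue) for the 23 tested genes of other AP-1 and bZIP factors, ordered by the DMF value, with dotted lines at -0.75 and 0.75. Jdp2 is lowest with DMF at -0.80, and with DMF + GSH it is at -0.02.

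Of the 23 genes that carry the T cell receptor and MAP kinase signal to AP-1, 1 was past the threshold as higher with DMF (1.22% of all genes) and 1 as lower (1.67%), and the median log2FC was -0.15. Map2k3, a kinase upstream of p38, went from 1067 ± 144 to 1980.2 ± 318 normalized counts (log2FC 0.89 ± 0.15, SE, p adj = 0.00649). Map3k5, the stress kinase ASK1, went from 1333 ± 190 to 744 ± 113 (log2FC -0.84 ± 0.15, p adj = 0.00689). Of the 15 other immediate early genes 2 were past it as higher (1.22% of all genes) and none as lower (1.67%), with a median of 0.15. Nr4a3, an orphan nuclear receptor gene, had a log2FC of 1.01 ± 0.14 (p adj = 0.00432) and Myc 0.87 ± 0.14 (p adj = 0.00554). With the replicate block 1 passed as lower, the antiproliferative gene Btg2 (log2FC -0.76, p adj = 0.113, or 1.55e-05 with the block).

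For DMF + GSH against DMF the median log2FC of the 15 other immediate early genes was -0.15, with 9 lower and 6 higher. Myc passed the threshold as lower, with the replicate block Nr4a3 did so too, and none passed as higher (against 0.276% of all genes lower and 0.267% higher, or 2.41% and 3.28% with the block). Dusp1 and Zfp36 were among the 6 with a higher value. Dusp1, a MAP kinase phosphatase, had 268, 132 and 179 normalized counts in Ctrl, 274, 126 and 150 under DMF alone, and 381, 225 and 252 with DMF + GSH. Zfp36, which encodes the mRNA decay factor tristetraprolin, had means of 1319, 953 and 1584. In both genes replicate 1 was highest in each group, as it was in Fos. Their log2FC of DMF + GSH against DMF was 0.68 (p adj = 0.014) and 0.71 (p adj = 0.0111), neither past the threshold, and that against Ctrl 0.59 and 0.26 (both p adj = 1.0). Dusp1 and Zfp36 were named after their values had been seen.

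Among 10 tested genes that BATF or JUNB bind or drive in type 17 cells, 9 had lower values with DMF and 1 higher. As lower 7 passed the threshold, against 1.67% of all genes, and none passed as higher, against 1.22%. In the fit with the replicate block 8 of 10 passed as lower, against 4.28% of all genes. The added one was the receptor gene Il23r (log2FC -1.46, p adj = 0.0128, or 0.000261 with the block). The median log2FC was -1.37. Il1r1, the receptor of interleukin-1, had a log2FC of -2.79 ± 0.18 (SE, p adj = 0.00036), Il17a -2.15 ± 0.27 (p adj = 0.00305), the chemokine receptor gene Ccr6 -1.88 ± 0.31 (p adj = 0.00635) and Il17f -1.39 ± 0.14 (p adj = 0.00169). Il22 was at 0 in all libraries. The fall of several of these genes was known when the list was made, so the count is not independent evidence of a direction. For DMF + GSH against DMF 4 of 10 were past the threshold as higher, against 0.267% of all genes, and 6 of 10 with the replicate block, against 3.28%, and none passed as lower in either fit. The median log2FC was 1.16. Both comparisons share the DMF libraries. Of 13 tested classical AP-1 targets 12 had a higher value with DMF and 1 a lower one, with a median log2FC of 0.37. Past the threshold 2 were higher (1.22% of all genes) and none lower (1.67%). Both were chemokine genes, Ccl3 (log2FC 1.80 ± 0.19, p adj = 0.00188) and Ccl4 (1.22 ± 0.19, p adj = 0.00574). For DMF + GSH against DMF, which shares the DMF libraries, 12 of the 13 targets were lower and 1 higher, with a median of -0.28. As lower 1 passed the threshold (0.276% of all genes), and 3 with the replicate block (2.41%). None passed as higher in either fit (0.267% and 3.28%).

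Genes of other cell types were weak in these libraries. In bulk samples fewer cells of a type and less RNA per cell cannot be told apart. Dendritic cells also express Batf3, and of 7 dendritic cell markers 6 had a mean under 10 normalized counts, with Cd209a at 0 in every library and Clec9a at a mean of 0.225. Their summed counts were 72.5 to 98.5 in Ctrl, 25.4 to 31.9 with DMF and 45.7 to 99.0 with DMF + GSH, and their part in the values of Batf3 was not tested. In Ctrl most of that sum was Xcr1, which was lower with DMF (13.8, 14.6 and 16.5 against 69.6, 69.7 and 55.5 in Ctrl, log2FC -2.05, p adj = 0.00297). Of 6 macrophage and monocyte markers 5 were in the table, and their sum was 71.7 to 269 in Ctrl, 54.0 to 71.1 with DMF and 81.7 to 89.1 with DMF + GSH. The highest Ctrl value was that of replicate 3, in which Lyz2 had 119 normalized counts. B cell markers summed to 59.0 to 95.7 normalized counts over all libraries, of which Cd79b made up most. Of 4 NK cell markers Ncr1 and Klrb1c had means of 0.313 and 0.977, and Nkg7, also a gene of CD8 T cells, had a mean of 1703. Eomes, which effector CD8 T cells also express, was higher with DMF (139, 129 and 123 against 49.9, 14.9 and 19.9 in Ctrl, p adj = 0.00276). The summed counts of 6 heat and handling genes, Hsph1, Hsp90aa1 and Hspa8 among them, were 12811 to 15988 in Ctrl, 17112 to 20799 with DMF and 13477 to 16045 with DMF + GSH. None of the 4 that were tested passed the threshold. The sum was highest in the group in which Atf3 and Batf3 were highest, and its part in their values was not tested.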

How the data were processed

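Poly(A) mRNA isolated from the total RNA of 9 Tc17 cultures was sequenced as single reads of 50 bp. The authors aligned reads to GRCm38 with STAR (2.4.0b), counted them per gene with featureCounts, and deposited 1 table. Its signal columns hold the authors' normalized counts, which are read counts divided by 1 size factor per library. All values were whole multiples of the value of 1 read (100% within a tolerance of 0.01), so that reads could be recovered. The deposited log2 fold changes, test scores and p-values belong to a comparison that the header does not name, and were not used.

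log2(normalized count + 1) was fitted for 11599 genes with a mean of at least 10 with limma (3.58.1, trend), with group and batch as terms and all 9 libraries in the fit, and p values were adjusted over all tested genes by Benjamini-Hochberg (p adj). Past the threshold means a p adj under 0.01 with a log2FC of at least 0.75 in size, and a 95% interval is that of limma's moderated estimate. edgeR (4.0.16) and DESeq2 (1.42.0) were run on recovered reads. In each of the 9 pairs of libraries that share a replicate number across groups, deviations from the group means had a correlation of 0.447 to 0.578. The highest between different numbers was -0.0621, but deviations within a group sum to 0, which pushes these values below 0. Batch was not removed, so the pairs of replicate 1 also share their batch. Because of the positive values within a number, the numbers were taken to pair the libraries. The fit with the replicate block is given where it changed the call of any of the 10 genes. It is given too where it changed the count of a list for DMF against Ctrl. It is also given for Jund, Fosb and Fosl2, whose calls did not change, and for some counts of the other comparisons. Other alternatives were the pseudocount (0.5 and 4), the minimum mean (none and 50), TMM and quantile scaling, no batch term, the 6 libraries of a comparison only, and leaving out each library. The steps were tested on simulated data.

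The 10 genes, the pathway and marker lists and the motifs were chosen with earlier results of these data known. From each pathway list the genes past the threshold with DMF were named, at most 4 by the size of the log2FC, and for Batf3 and Atf3 the 5 genes with the highest r. Gene positions and exon lengths came from GENCODE for GRCm38, and promoter sequences from RefSeq. Groups of 3 limit the precision, and the value of 1 read was 0.742 to 1.42 normalized counts. Of the genes most like Atf3, 1 is not reported here.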

Additional observations from a re-analysis of the deposited data

How the results depend on the processing

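Counts of genes past the threshold depended on the fit. For DMF against Ctrl the count was 335, and it was 789 with the replicate block, 795 with edgeR and the replicate block, 554 with DESeq2 and 43 in the 6 libraries compared. Leaving out 1 library gave 2 to 680 genes, the fewest being 2 (Ctrl replicate 1 left out), 5 (DMF replicate 1), 12 (DMF replicate 3) and 26 (Ctrl replicate 2). With the block it gave 561 to 865. For DMF + GSH against DMF the count was 63, and it was 273 with no minimum mean, 28 without the batch term, 660 with the replicate block, 655 with edgeR and the block, 384 with DESeq2 and 5 in the 6 libraries. Leaving out 1 library gave 0 to 480, the 0 arising without replicate 3 of DMF and without replicate 1 or 2 of DMF + GSH, and with the block 404 to 728. For DMF + GSH against Ctrl it was 0, with 1 gene under the replicate block in limma and in edgeR, and 0 to 5 when a library was left out under the block. The cause was not tested.

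The log2FC of Batf3 for DMF against Ctrl stayed between 3.00 and 3.84 and that of Atf3 between 1.47 and 2.13 in all fits. With the replicate block both passed the threshold in each of the 9 fits without 1 library, and so did Batf3, Atf3 and Fos for DMF + GSH against DMF. With the batch term Batf3 passed in 5 of 9 such fits for DMF against Ctrl and in 3 of 9 for DMF + GSH against DMF, where its p adj reached 0.0832. Fosl1 passed in 8 of 9 with the block for DMF against Ctrl and 1 of 9 for DMF + GSH against DMF. The replicate block in place of the batch changed the calls of Fosl1 for DMF against Ctrl and of Atf3 and Fos for DMF + GSH against DMF, and no other of the 30. Batf3 missed the threshold for that comparison with a minimum mean of 50 (p adj = 0.0106), without the batch term (0.0108) and in the 6 libraries (0.0211). Of these 30 log2FC values of the 10 genes, the sign changed in 10 when a library was left out, none of them past the threshold. These ranged for DMF against Ctrl from -0.073 to 0.44 (Fosb) and -0.12 to 0.13 (Jun, -0.032 with quantile scaling), for DMF + GSH against DMF from -0.0054 to 0.15 (Batf), -0.11 to 0.14 (Jun) and -0.48 to 0.060 (Jund), and for DMF + GSH against Ctrl from -0.27 to 0.40 (Atf3), -0.086 to 0.32 (Fosl1), -0.083 to 0.13 (Jun), -0.058 to 0.040 (Junb) and -0.13 to 0.51 (Jund). Atf3 was not tested with a minimum mean of 50. Depth limits Batf3 and Atf3 most, which had 6 to 150 and 14 to 125 reads per library.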
